A study of Mus musculus with 22 samples.

Results

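The DNA methylation machinery was followed through early blood formation with and without ARID1A, a DNA-binding subunit of the BAF chromatin remodeling complex. The genes described are 8 of the 47311 mouse genes with a row in the series. They were chosen by name: the maintenance methyltransferase Dnmt1 with its partner Uhrf1, the de novo methyltransferases Dnmt3a and Dnmt3b, their catalytically inactive cofactor Dnmt3l, and the dioxygenases Tet1, Tet2 and Tet3. Dnmt3l had been noted for a higher level in KO GMP cells, so its values there are given as a description with no test, and the other 7 were listed for their function.

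RNA was measured in 22 libraries of sorted bone marrow cells: 4 of LT-HSC (CD34-Flt3- LSK cells, 2 WT and 2 KO) and 18 of the myeloid precursors CMP, GMP and MEP. Among Lin-Kit+Sca1- cells, CMP and GMP were sorted as CD34+ with low or high FcγRII/III, and MEP as negative for both. The precursors came from 3 WT and 3 KO mice, and each mouse gave all 3 populations. All animals carried Arid1a f/f on a C57BL/6 background and received poly(I:C) at 8 to 14 weeks of age. They were Mx1-Cre- littermates (WT) or Mx1-Cre+ (KO, labelled ARID1A-/-), and cells were sorted 4 weeks after the injections. Mx1-Cre is switched on by the interferon response in cells that can mount it, and both genotypes had been through that response. LT-HSC libraries were made with a low-input SMART-Seq kit and the precursors with a TruSeq kit, so levels in LT-HSC are set beside those of precursors without a test.

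DNA methylation in mammals is laid down on CpG dinucleotides by DNMT3A and DNMT3B, with DNMT3L as a cofactor that lacks catalytic activity of its own and is best known from germ cells and early embryos. UHRF1 recognises the half-methylated CpG sites left by DNA replication and recruits DNMT1, which copies the mark to the new strand. The TET enzymes oxidise methylcytosine, which starts its removal. DNMT3A and TET2 are among the genes most often mutated in clonal hematopoiesis and myeloid leukemia, and mouse HSCs that lack either are known to expand.

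Total estimated counts lay between 40804031 and 65930737 per library. The GMP and LT-HSC libraries carried their markers. In GMP the summed level of 8 GMP markers such as Mpo and Elane was 31480 to 47280 TPM, against at most 4869 TPM elsewhere. TPM is a level scaled for transcript length and library size. The sum of 8 LT-HSC markers was 1144 to 1773 TPM in LT-HSC and at most 161.9 TPM elsewhere. Other lists were less particular to 1 population. MEP and erythroid markers summed to 3371 to 6370 TPM in MEP and up to 3335 TPM in LT-HSC. Erythroblast markers summed to 1143 to 2793 TPM in LT-HSC against 624.5 to 1623 TPM in MEP. Markers of later neutrophils reached 2565 TPM in a WT LT-HSC library and at most 1346 TPM in GMP. The LT-HSC libraries came from the other kit. One WT LT-HSC library, S245, stood apart, with 27191 genes at 10 counts or more against 18504 to 22407 in the other LT-HSC libraries. Arid1a itself, of which the KO removes exon 9, was lower in KO than in WT in every population without overlap of the libraries. The log2 fold change of its whole-gene counts was -0.22 (CMP), -0.40 (GMP), -0.14 (MEP) and -1.14 (LT-HSC) (adjusted p = 0.0284, 0.0246, 0.0836 and 0.421 with edgeR's quasi-likelihood test). Counts over the whole gene also hold the exons outside the deletion.

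Promoters of the 8 genes come from the RefSeq table of GRCm38.p6, which lists 15 start regions for them, each with 250 bases before and 50 after the start. The 6 regions printed here are the alternative starts of Dnmt3l, Uhrf1 and Dnmt3a, on which the transcript results turn. Each is given 5′ to 3′ on the plus strand, and capitals mark CpG dinucleotides, the substrate of these enzymes.
Dnmt3l, start of the full coding transcript, chr10:78049592-78049891: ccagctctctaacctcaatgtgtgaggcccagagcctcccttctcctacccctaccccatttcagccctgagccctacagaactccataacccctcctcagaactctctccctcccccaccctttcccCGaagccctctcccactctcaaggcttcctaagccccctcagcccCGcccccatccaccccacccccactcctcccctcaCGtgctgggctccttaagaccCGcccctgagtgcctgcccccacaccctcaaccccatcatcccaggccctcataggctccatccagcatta
Dnmt3l, internal start, chr10:78055085-78055384: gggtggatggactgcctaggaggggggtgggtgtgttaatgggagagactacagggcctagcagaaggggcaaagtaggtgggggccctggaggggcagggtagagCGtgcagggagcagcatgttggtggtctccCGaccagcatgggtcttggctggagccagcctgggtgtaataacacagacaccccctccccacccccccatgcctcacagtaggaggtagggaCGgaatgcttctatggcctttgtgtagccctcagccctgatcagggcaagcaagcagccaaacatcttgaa
Uhrf1, upstream start, chr17:56303087-56303386: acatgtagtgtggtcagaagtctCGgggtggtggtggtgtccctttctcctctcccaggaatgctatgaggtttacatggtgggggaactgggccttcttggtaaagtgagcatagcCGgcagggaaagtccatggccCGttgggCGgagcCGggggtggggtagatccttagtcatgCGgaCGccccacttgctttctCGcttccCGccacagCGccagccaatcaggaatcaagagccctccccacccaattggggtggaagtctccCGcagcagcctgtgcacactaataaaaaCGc
Uhrf1, downstream start, chr17:56304063-56304362: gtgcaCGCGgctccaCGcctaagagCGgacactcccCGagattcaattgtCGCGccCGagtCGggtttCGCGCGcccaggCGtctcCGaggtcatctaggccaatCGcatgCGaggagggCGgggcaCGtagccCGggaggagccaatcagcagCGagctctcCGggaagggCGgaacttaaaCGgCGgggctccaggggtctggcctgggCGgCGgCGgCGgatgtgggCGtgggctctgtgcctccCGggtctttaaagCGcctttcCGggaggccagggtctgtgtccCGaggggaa
Dnmt3a, start of the long transcripts, chr12:3806910-3807209: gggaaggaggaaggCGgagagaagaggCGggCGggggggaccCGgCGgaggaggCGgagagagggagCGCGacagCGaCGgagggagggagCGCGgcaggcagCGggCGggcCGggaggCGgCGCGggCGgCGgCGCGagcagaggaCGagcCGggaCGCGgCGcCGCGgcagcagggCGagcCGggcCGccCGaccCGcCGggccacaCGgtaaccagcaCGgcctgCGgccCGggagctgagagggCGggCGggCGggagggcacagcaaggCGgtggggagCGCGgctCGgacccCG
Dnmt3a, internal start, chr12:3891494-3891793: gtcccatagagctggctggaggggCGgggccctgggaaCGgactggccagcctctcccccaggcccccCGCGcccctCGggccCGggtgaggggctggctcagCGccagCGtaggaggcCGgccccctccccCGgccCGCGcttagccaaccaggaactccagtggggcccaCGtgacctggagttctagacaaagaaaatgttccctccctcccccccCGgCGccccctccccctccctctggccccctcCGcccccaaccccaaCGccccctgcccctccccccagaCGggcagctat
The 2 Dnmt3l regions hold 4 and 3 CpG, counts that 38.0% and 31.4% of the 32851 promoters in the table do not exceed. The third listed Dnmt3l start, the most upstream, holds 6 CpG. The long Dnmt3a start is CpG dense with 47 CpG, and the internal start has 18. Uhrf1 has 12 CpG at its upstream and 33 at its downstream start, and the median over all promoters in the table is 7. Motifs of 4 kinds of blood transcription factors were searched on both strands of the 15 regions. The PU.1 core GAGGAA, present in 28.3% of all promoters, was found in the upstream region of Dnmt1, the most upstream region of Dnmt3l, both long starts of Dnmt3a and the promoter of Dnmt3b. The RUNX motif TGTGGT (16.8% of all promoters) was found in the upstream Uhrf1 region. The letters of the GATA motif AGATAA (11.2%) and the C/EBP motif TTGCNNAA (10.8%) are in none of the 15 windows. The 4 motifs share no full match with one another, and a match is a description of letters only.

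In WT precursors the maintenance pair was the most abundant of the 8 genes. The level of Dnmt1 was 171.7 ± 6.31 TPM in CMP, 154.4 ± 13.9 TPM in GMP and 122.2 ± 3.72 TPM in MEP (SD, n = 3). Uhrf1 stood beside it at 169.8 ± 7.43, 159.1 ± 11.6 and 146.7 ± 12.9 TPM. The ranges of Dnmt1 and Uhrf1 overlapped in CMP and GMP, whereas in MEP all Uhrf1 libraries (136.4 to 161.1 TPM) were above all Dnmt1 libraries (118.0 to 125.1 TPM).

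The de novo enzymes formed the next tier. In WT CMP, Dnmt3b was at 36.9 ± 1.45 TPM and Dnmt3a at 32.2 ± 2.66 TPM, without overlap. In WT GMP the order was turned, with Dnmt3a at 34.1 ± 3.66 TPM and Dnmt3b at 22.2 ± 1.51 TPM. In WT MEP they were at 16.0 ± 1.48 and 14.1 ± 1.84 TPM, with overlapping ranges. Dnmt3a supplied 46.6% of the summed TPM of both genes in WT CMP, 60.6% in WT GMP and 53.3% in WT MEP.

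Among the dioxygenases Tet3 was the most abundant in WT precursors, at 24.0 ± 2.40 TPM in CMP, 20.2 ± 4.42 TPM in GMP and 12.7 ± 0.590 TPM in MEP. Tet2 was at 13.1 ± 1.84, 17.5 ± 3.30 and 4.41 ± 0.985 TPM, so that it overlapped with Tet3 in GMP only. Tet1 was the lowest of the 3 in each, at 6.28 ± 2.03, 4.28 ± 1.26 and 1.20 ± 0.171 TPM. Tet3 made up 69.5% of the summed TET level in WT MEP against 48.1% in WT GMP, where Tet2 held 41.8%. Dnmt3l, the lowest of the 8 genes, reached 2.30 ± 0.401 TPM in WT GMP.

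In TPM, LT-HSC libraries showed another balance, with more Dnmt3a than any precursor and less Dnmt1. For Dnmt3a this rests on the length scaling. In counts scaled for library size alone (CPM), its mean in WT LT-HSC was 97.8. That was below WT CMP (126.0) and WT GMP (117.4) and above WT MEP (52.15). These CPM were scaled within each population and not brought to a common TMM scale, so their order is a description only. The effective length assigned to Dnmt3a was 1793 and 1943 bases in WT LT-HSC, against 5198 to 5570 bases in WT CMP from the other kit. The WT libraries S245 and S269 held 82.1 and 55.4 TPM of Dnmt3a, 33.9 and 39.8 TPM of Dnmt3b, 67.1 and 92.3 TPM of Dnmt1, and 56.6 and 120.3 TPM of Uhrf1. Tet1 was at 15.9 and 7.69 TPM and Tet3 at 11.3 and 10.8 TPM. Tet2 was at 20.0 TPM in S245 and 4.79 TPM in S269, so its place among the 3 TET genes rests on which of these libraries is read. The order of the 8 genes by mean level was the same in each of the 8 groups when FPKM with TMM library sizes replaced TPM. Both measures divide by the same effective lengths and differ by a factor per library. The order within a library could thus not change, and this is no separate check.

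**Figure D1:**
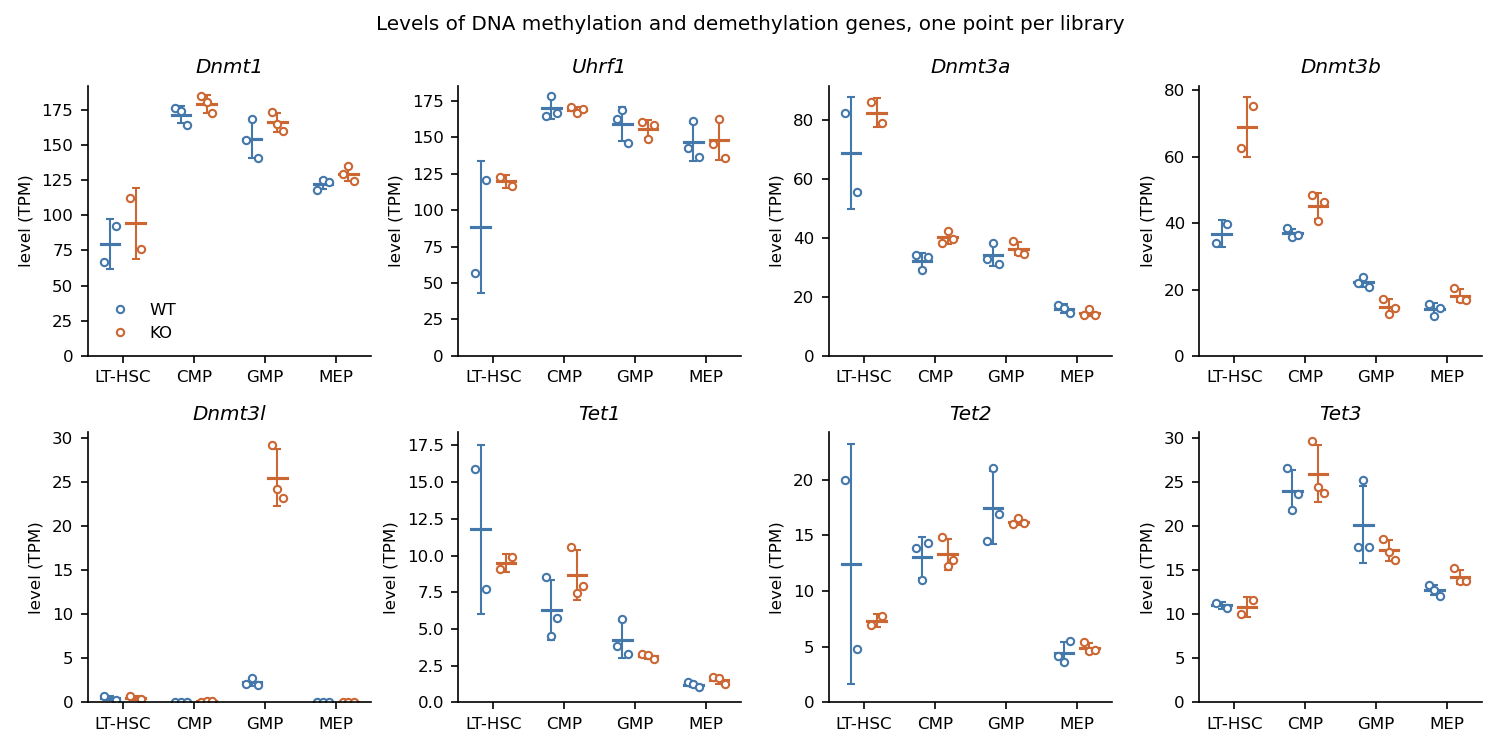
Level of each of the 8 genes in TPM (vertical axis, linear, from 0) in WT (blue) and KO (orange) libraries of the 4 populations. Points are libraries, and bars give the mean ± SD (n = 2 for LT-HSC, n = 3 for the others). Dnmt3l lies between 23.1 and 29.1 TPM in KO GMP and at or below 2.76 TPM in every other group.

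Which population expressed which enzyme was tested in the 9 WT libraries of precursors, blocked on the mouse. MEP stood out by low levels. Dnmt3l passed the filter here only through its GMP libraries and is left out of the counts, which are over the other 7 genes. Against CMP, 6 of the 7 were lower in WT MEP and none was higher (0 at an adjusted p under 0.1 and 0 at an unadjusted p under 0.05 in that direction), where 38.0% of all genes tested were lower and 34.4% higher. The falls were 2.11 ± 0.19 (SE) on the log2 scale for Tet1, 1.40 ± 0.13 for Tet2, 1.07 ± 0.08 for Dnmt3b, 1.06 ± 0.08 for Dnmt3a and 0.59 ± 0.12 for Tet3 (adjusted p between 2.8e-06 and 0.00236 with edgeR's quasi-likelihood test). Dnmt1 was lower by a log2 fold change of -0.18 ± 0.05 (adjusted p = 0.016), a call that was lost without WT mouse 300 (adjusted p = 0.147). Uhrf1 did not pass the test, at 0.07 ± 0.05 (adjusted p = 0.28). In TPM it went the other way, with WT MEP (136.4 to 161.1 TPM) below WT CMP (164.6 to 178.3 TPM). No test of the WT populations was run on TPM values. In bulk libraries, fewer cells of a type that express a gene and less RNA of it per cell cannot be told apart.

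GMP differed from MEP in the same genes. In WT GMP, 6 of the 7 were higher than in WT MEP and none lower, where 36.5% of all genes were higher and 36.1% lower. Tet2 had a log2 fold change of 1.99 ± 0.13, Tet1 of 1.68 ± 0.19, Dnmt3a of 1.16 ± 0.08, Dnmt3b of 0.50 ± 0.08, Tet3 of 0.47 ± 0.12 and Dnmt1 of 0.18 ± 0.05 (largest adjusted p = 0.0129, Dnmt1). Both comparisons share the WT MEP libraries.

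Between GMP and CMP the genes split. In WT GMP, Tet2 was higher by 0.59 ± 0.13 on the log2 scale (adjusted p = 0.00597), 1 of the 7 where 21.0% of all genes were called. Dnmt3b was lower by a log2 fold change of -0.57 ± 0.08 (adjusted p = 0.000602) and Tet1 by -0.43 ± 0.18 (adjusted p = 0.0879), 2 of the 7 where 24.2% of all genes were called. The Tet1 call was lost without WT mouse 300 (adjusted p = 0.421), without WT mouse 309 (adjusted p = 0.371) and with an offset for transcript length (adjusted p = 0.212). Dnmt1, Uhrf1, Dnmt3a and Tet3 did not pass, with log2 fold changes between -0.12 and 0.10.

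Dnmt3l, located at chr10:78041947-78063622 on the plus strand of GRCm38, was found mainly in GMP among the 3 precursors. Its estimated counts in WT GMP were 46, 38 and 32, in WT CMP 4, 1 and 5, and in WT MEP 0 in all 3 libraries. Summed over the libraries and scaled for library size, WT GMP held 12.4 times the counts of WT CMP and at least 32.2-fold more than WT MEP, with 3 counts over the group as the limit that a count of 0 allows. The WT GMP libraries belong to the contrast from which the gene had been noted, so these ratios are a description. LT-HSC libraries held 30 and 18 counts in WT and 17 and 26 in KO, at 0.310 to 0.699 TPM.

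In KO GMP the counts of Dnmt3l were 584, 501 and 491, or 29.1, 24.2 and 23.1 TPM. All 3 KO libraries were far above all WT libraries, which held 2.13, 2.76 and 2.01 TPM. In CPM, which scale counts for library size and not for length, the means were 10.1 in KO and 0.693 in WT, a fitted log2 fold change of 3.86 ± 0.16 (SE), or 14.6-fold. On log2(TPM + 1) values it was 3.0 and on log2(TPM + 0.1) values 3.42. This is the contrast from which the gene had been noted. In KO GMP its TPM were above those of Tet3, Tet2 and Dnmt3b, while in CPM it stayed the lowest of the 8 genes, below Tet1 at 24.4 and Dnmt3b at 40.5.

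No like difference was seen in the neighbouring precursors. Dnmt3l had 1, 6 and 7 counts in KO CMP, with a KO over WT ratio of 1.38 (95% exact interval of counting error 0.571 to 3.48). KO MEP libraries held 0, 1 and 3 counts. In both populations the gene did not pass the filter on low counts and was not tested. In LT-HSC it did not pass the test (log2 fold change -0.29 ± 1.75, adjusted p = 0.974), and the width of that error leaves large differences undetectable at this depth.

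Most Dnmt3l counts of GMP were assigned to transcripts that do not encode the whole protein. Ensembl gives the gene 8 transcripts. Of these Dnmt3l-201, Dnmt3l-205 and Dnmt3l-208 share a coding sequence of 1263 bases over 12 coding exons. Dnmt3l-202, Dnmt3l-203 and Dnmt3l-206 start inside the gene at position 78055335, which lies 5493 bases after the start of Dnmt3l-201, and hold a coding sequence of 378 bases in the last 3 coding exons. Dnmt3l-207 is a retained-intron transcript of 409 bases with no coding sequence, which overlaps that region. In WT GMP the internal start took 28, 20 and 19 counts, the retained-intron transcript 14, 18 and 13, and the full coding transcripts 4, 0 and 0. In KO GMP the internal start took 380, 305 and 318 counts, the retained-intron transcript 171, 144 and 136, and the full coding transcripts 33, 52 and 37. The full coding transcripts thus held 5.67% to 10.4% of the counts in KO GMP and 0% to 9.69% in WT GMP. The dominant single transcript was Dnmt3l-203, with 5 exons and 1113 bases.

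These shares are estimates, because kallisto divides fragments that fit several transcripts, and all transcripts with the internal start share their last exons with the full ones. Since the 2 short kinds hold most counts, the TPM of Dnmt3l, which divides by transcript length, is raised relative to a gene with the same counts on long transcripts: the retained-intron transcript took 28.6% of the counts but 63.3% of the TPM in KO GMP.

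**Figure D2:**
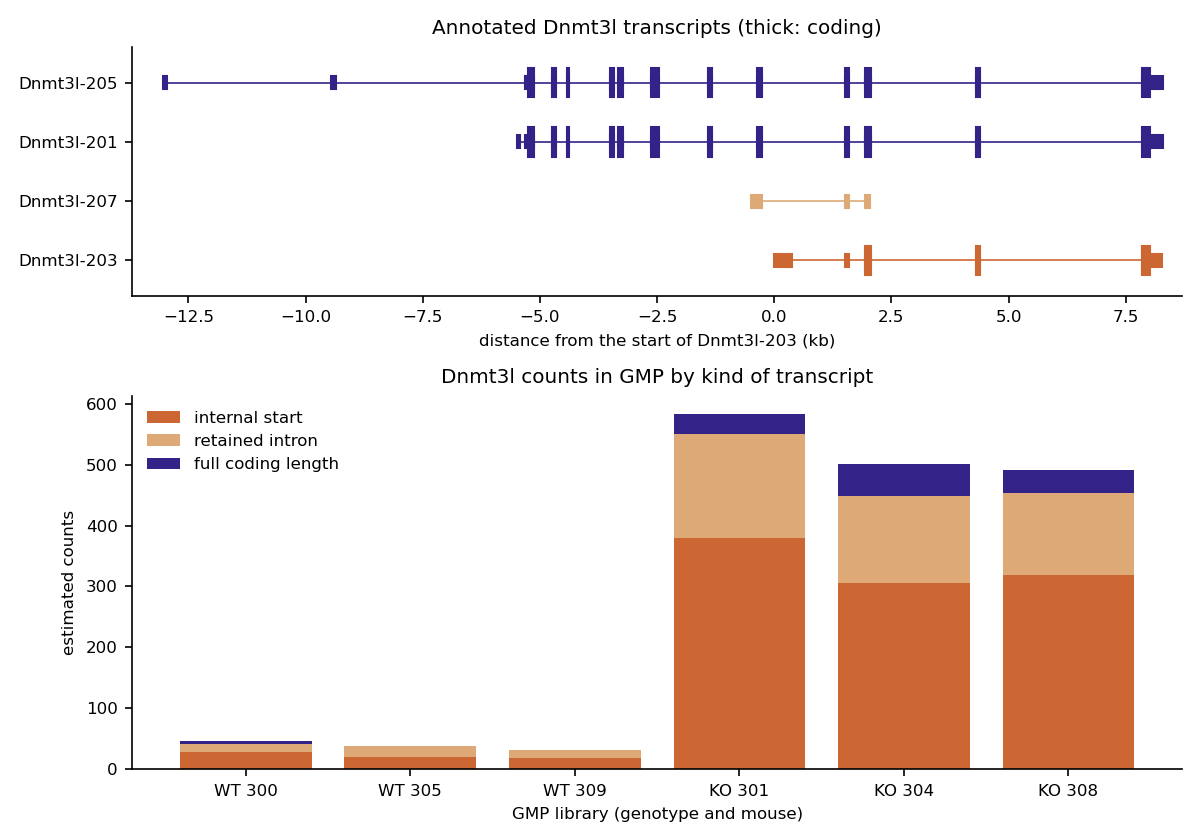
Top, 4 annotated Dnmt3l transcripts with exons as boxes (coding parts thick) along the distance in kb from the internal start of Dnmt3l-203. Bottom, estimated counts of Dnmt3l in each GMP library, stacked by kind of transcript. The 3 KO bars reach 491 to 584 counts and the 3 WT bars 32 to 46, and the full coding transcripts form the thin top layer of at most 52 counts.

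Neighbouring genes were read beside Dnmt3l because the kit did not mark strand. Aire, which overlaps Dnmt3l on the opposite strand, held 12, 5 and 15 counts in WT GMP and 9, 10 and 5 in KO GMP and was not called (adjusted p = 0.728). Icosl, 5680 bases downstream on the same strand, was lower in KO GMP (log2 fold change -0.52 ± 0.18, adjusted p = 0.0651), and so was Pfkl on the other side (-0.33 ± 0.08, adjusted p = 0.0184). The higher level in KO GMP was thus not shared by the genes at its sides.

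RNA of cell type markers moved with genotype in the same GMP libraries. In bulk libraries a change in the share of cells and one in RNA per cell cannot be told apart. Of 8 GMP markers, 7 were called higher in KO GMP, and their summed level was 41920 to 47280 TPM in KO against 31480 to 37040 TPM in WT. Of 8 markers of later neutrophils 4 were called higher and 1 lower, with sums of 413.9 to 1346 TPM against 161.6 to 374.3 TPM, and of 8 markers of mast cells and basophils 6 were called lower, with sums of 314.9 to 380.1 TPM against 999.2 to 1476 TPM. LT-HSC markers were lower in 5 of 8 and higher in 1 (13.72 to 13.97 TPM against 19.2 to 22.27 TPM), MEP and erythroid markers likewise in 5 and 1 of 8 (156.7 to 170.6 TPM against 186.2 to 234.7 TPM), and monocyte and macrophage markers in 4 and 1 of 8 (87.1 to 114.4 TPM against 105.5 to 148.6 TPM). Of 4 stem and progenitor markers only Cd34 was called, with a fall of 0.47 ± 0.12 on the log2 scale (adjusted p = 0.0189). Kit, Flt3 and Myb were at -0.02, -0.14 and -0.08 and were not called (adjusted p = 0.867, 0.713 and 0.514). CD34 is also a marker of the precursor sort, and the paper reports less of it on the surface of KO CMP and GMP. Whether the sorted KO populations held other cells than the WT ones was not tested. Of these lists, that of LT-HSC markers had 1 gene under 10 counts in every library of KO GMP. The part of these shifts in the values of the 8 genes was not tested.

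Of the other 7 genes, 3 were called between KO and WT in GMP, 2 higher and 1 lower, where 17.5% of all genes tested were called higher and 16.3% lower. Dnmt3b was the one that fell. Its CPM were 57.3, 54.7 and 53.1 in WT GMP and 45.5, 35.2 and 40.8 in KO GMP, with every KO library below every WT library. The log2 fold change was -0.44 ± 0.09, or 1.36-fold lower (adjusted p = 0.00729 with edgeR's quasi-likelihood test), and it kept its side of the threshold under each alternative setting run for it.

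Dnmt1 rose in KO GMP from 559.9, 609.6 and 534.8 CPM in WT to 675.6, 701.4 and 662.3 CPM, a log2 fold change of 0.26 ± 0.07 (adjusted p = 0.023). Dnmt3a rose from 115.6, 127.9 and 108.7 CPM to 142.0, 134.9 and 130.1 CPM, by 0.21 ± 0.07 (adjusted p = 0.0585). In both genes all KO libraries were above all WT libraries in CPM. With median-of-ratios size factors both stayed past the threshold, Dnmt1 at 0.25 (adjusted p = 0.0289) and Dnmt3a at 0.20 (adjusted p = 0.0752). With limma on log2(TPM + 1) values, where test and scale change together, the median of all genes in this comparison moved to -0.10, the calls over all genes went from 2874 higher and 2676 lower to 1307 and 3672, and Dnmt1 and Dnmt3a were then at 0.11 (adjusted p = 0.367) and 0.09 (adjusted p = 0.537). Dnmt1 was also lost without WT mouse 309 (adjusted p = 0.124). Dnmt3a was lost without WT mouse 300 or 309 or KO mouse 301 or 304 (adjusted p between 0.13 and 0.265).

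Uhrf1, the partner of Dnmt1, had a log2 fold change of 0.12 ± 0.06 in GMP and did not pass (adjusted p = 0.206), with KO libraries at 363.9 to 381.0 CPM and WT libraries at 318.7 to 355.7 CPM. On log2(TPM + 1) values its sign turned, at -0.03. The TET genes stayed within 0.21 on the log2 scale, with Tet1 at -0.21 ± 0.15, Tet2 at 0.06 ± 0.09 and Tet3 at -0.08 ± 0.12, and with overlapping libraries. The balance of the de novo pair shifted with Dnmt3b: Dnmt3a supplied 60.6% of their summed TPM in WT GMP (60.0% to 61.7% over libraries) and 71.1% in KO GMP (69.2% to 73.6%).

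In CMP Dnmt3a was called higher, 1 of the 7 genes that passed the filter, and none was called lower (0 also at an unadjusted p under 0.05 and with DESeq2, but 1, Uhrf1, with a replicate block on the order of the sample columns), where 10.6% of all genes were called higher and 12.8% lower. Its CPM were 128.8, 119.5 and 129.6 in WT and 134.7, 142.6 and 142.6 in KO, a log2 fold change of 0.15 ± 0.05 (adjusted p = 0.0939). The call sat at the edge of the threshold: it was lost when any of the 6 mice was left out (adjusted p between 0.117 and 0.234), and also without the filter on low counts, with an offset for transcript length and with all precursor libraries in 1 fit (adjusted p = 0.121, 0.104 and 0.105).

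Dnmt3b in CMP had 98.0, 95.1 and 90.0 CPM in WT and 111.3, 96.1 and 109.7 CPM in KO, with overlap (log2 fold change 0.16 ± 0.07, adjusted p = 0.146). Tet1 had 52.4, 37.9 and 41.4 CPM in WT and 63.8, 47.2 and 57.9 CPM in KO (0.36 ± 0.14, adjusted p = 0.121). The ranges of the WT and KO libraries overlapped for both. With the replicate block on column order, which no label calls a pairing, both passed the threshold (adjusted p = 0.0761 for Dnmt3b and 0.00257 for Tet1), and so did Uhrf1 (log2 fold change -0.13, adjusted p = 0.0667). Without KO mouse 304 Dnmt3b and Tet1 passed the threshold (adjusted p = 0.0449 for Dnmt3b and 0.0439 for Tet1), and Tet1 also passed without WT mouse 300 (0.0382) and with DESeq2 (0.0435). Dnmt1, Uhrf1, Tet2 and Tet3 lay between -0.13 and 0.01 and were not called. Erythroblast markers such as globins were higher in KO CMP, 8 of 8, with sums of 685.3 to 897.3 TPM against 108.4 to 162.7 TPM in WT. LT-HSC markers were called higher in 3 of 8 and lower in 2, with sums of 152.2 to 161.9 TPM against 93.64 to 121.0 TPM. Megakaryocyte markers were lower in the same libraries, 6 of 8 with 1 higher (383.2 to 408.6 TPM against 569 to 799.3 TPM), as were 5 of 8 markers of later neutrophils (39.84 to 76.45 TPM against 69.15 to 316.7 TPM), 5 of 7 tested of mast cells and basophils (94.7 to 95.12 TPM against 123.5 to 303.7 TPM) and 4 of 8 GMP markers (1802 to 2776 TPM against 4018 to 4869 TPM). The part of these shifts in the values above was not tested.

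In MEP the gene called was Dnmt3b, and it rose. Its CPM were 43.7, 33.2 and 39.8 in WT and 54.7, 46.4 and 49.1 in KO, without overlap, at a log2 fold change of 0.37 ± 0.11 (adjusted p = 0.041). This was 1 of 7 genes tested, where 14% of all genes were called higher and 15.4% lower. The call was lost with limma on log2(TPM + 1) (adjusted p = 0.103) and without KO mouse 301 (adjusted p = 0.142). Dnmt3a at -0.12 ± 0.05 (adjusted p = 0.138) and Tet3 at 0.12 ± 0.05 (adjusted p = 0.129) had separate groups of libraries but did not pass. Tet2 at 0.20 ± 0.11 (adjusted p = 0.248) passed without WT mouse 309 only (0.0985). Erythroblast markers were higher in KO MEP as well, 6 of 8, with sums of 1238 to 1623 TPM against 624.5 to 882.5 TPM. The 8 MEP and erythroid markers fell in sum, to 3371 to 4010 TPM against 5062 to 6370 TPM in WT. Of these 2 were called higher (Klf1, Epor) and 2 lower (Gfi1b, Car1). Markers of mast cells and basophils were lower in 3 of 5 tested (1.489 to 3.096 TPM against 3.885 to 7.818 TPM). Of 8 megakaryocyte markers 4 were higher and 0 lower (56.7 to 79.45 TPM against 16.18 to 30.13 TPM), and of 7 LT-HSC markers tested 3 were higher and 0 lower (119.4 to 131.8 TPM against 69.32 to 75.38 TPM). The part of these lists in the Dnmt3b value was not tested.

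Reads of Dnmt3b could be shared with Dnmt3c, a near copy of it 8922 bases downstream that is known from male germ cells. Dnmt3c held 142 to 237 counts in WT MEP and 248 to 398 in KO MEP, beside 1408 to 2477 and 2444 to 2787 counts of Dnmt3b. In GMP it held at most 4 counts, so that the fall of Dnmt3b there was measured with almost no counts on the copy.

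In LT-HSC none of the 8 genes was called between KO and WT by edgeR's quasi-likelihood test, where 0.0264% of all genes were called higher and 0.0528% lower. At an unadjusted p under 0.05 the count was 1, Dnmt3b. Its levels were 33.9 and 39.8 TPM in WT and 62.5 and 75.4 TPM in KO, and in CPM 66.8 and 102.3 against 177.3 and 208.9, with both KO libraries above both WT libraries. The log2 fold change was 1.19 ± 0.32 (adjusted p = 0.588), and DESeq2, with the same filter, called it (adjusted p = 0.0504). Without the WT library S245, which stands apart, the value was 0.94 (adjusted p = 0.0182), and without S269 it was 1.5 (adjusted p = 9.48e-07), each time with a single WT library that is assumed to vary like the KO libraries.

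The other LT-HSC values were led by the WT library read. Uhrf1 was at 124.1 and 303.3 CPM in WT and 323.3 and 328.7 CPM in KO, and Dnmt1 at 238.2 and 404.3 CPM in WT and 500.6 and 373.8 CPM in KO. With S245 as the only WT library both were called higher (log2 fold change 1.36, adjusted p = 1.2e-06 for Uhrf1 and 0.85, adjusted p = 0.00413 for Dnmt1), and neither was with both. Replication genes moved with these: their median log2 level against the WT mean was -0.50 in S245, 0.50 in S269, and 0.66 and 0.63 in the KO libraries. The part of this in the values of Uhrf1 and Dnmt1 was not tested.

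**Figure D3:**
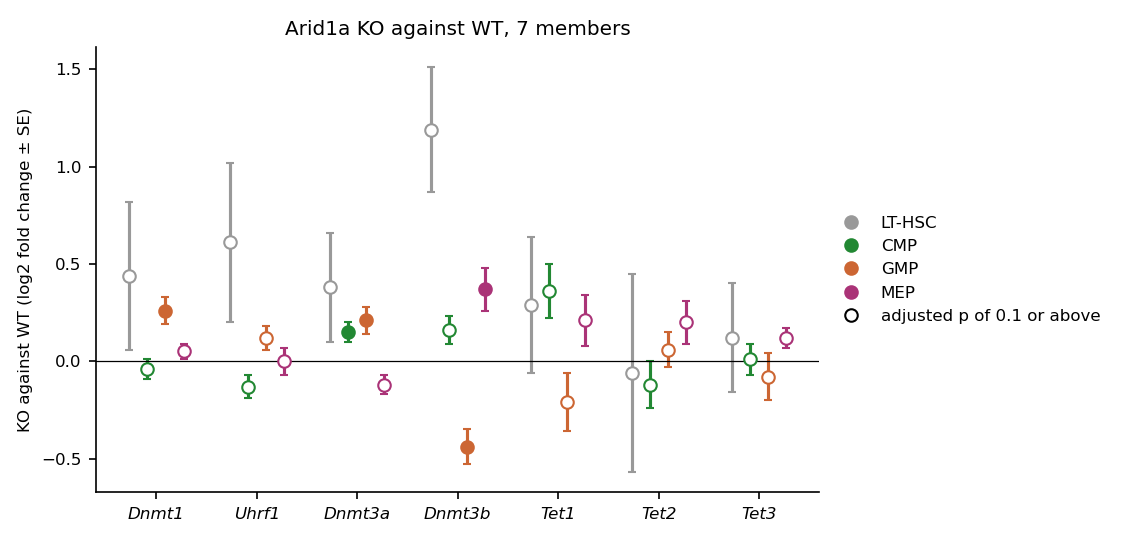
Difference between KO and WT for 7 genes in the 4 populations as the log2 fold change (vertical axis) with its SE. Filled points passed an adjusted p of 0.1 and open points did not. Dnmt3b is at -0.44 in GMP and at 0.37 in MEP, and the 3 TET genes have open points throughout.

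Whether the KO effect differed between precursors was tested in 1 fit of all 18 libraries that blocked on the mouse. Dnmt3b differed most among the 7 genes: its effect in GMP was lower than that in CMP by a log2 value of -0.61 ± 0.10 (adjusted p = 0.00112) and lower than that in MEP by -0.81 ± 0.10 (adjusted p = 9.24e-05). Dnmt1 had a larger effect in GMP than in CMP by 0.30 ± 0.07 (adjusted p = 0.00686) and than in MEP by 0.22 ± 0.07 (adjusted p = 0.0358). Uhrf1 had a larger effect in GMP than in CMP by 0.26 ± 0.08 (adjusted p = 0.0399), and Dnmt3a a larger one in GMP than in MEP by 0.33 ± 0.10 (adjusted p = 0.0264).

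That made 3 of 7 genes between GMP and CMP, where 21.0% of all genes were called in either direction, and 3 of 7 between GMP and MEP, where the share was 26.8%. Between MEP and CMP none passed, where 13.1% of all genes did. In that pair 1 gene, Dnmt3a, had an unadjusted p under 0.05 (-0.27 ± 0.10, adjusted p = 0.112), which passed without WT mouse 305 (0.0913). The Dnmt3b differences were kept with every mouse left out in turn. Those of Dnmt1 and Dnmt3a between GMP and MEP were lost without WT mouse 309 (adjusted p = 0.203 and 0.101) and without KO mouse 301 (0.124 and 0.113). That of Dnmt1 was also lost without KO mouse 304 (0.103) and that of Dnmt3a without WT mouse 300 (0.112). The Uhrf1 difference was lost without KO mouse 301, WT mouse 305 or WT mouse 309 (adjusted p between 0.163 and 0.198).

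Transcript starts separated WT from KO libraries in some genes whose total counts did not pass the test. Uhrf1 has an upstream start and, 992 bases further on, a downstream start. The downstream start took 10.4%, 10.5% and 10.9% of the Uhrf1 counts in WT GMP and 17.2%, 19.3% and 16.9% in KO GMP. Shares in the 3 WT libraries lie close together and all KO shares are above them. In CMP the shares were 8.48% to 13.7% in WT and 6.88% to 8.56% in KO, and in MEP 7.90% to 13.03% and 8.38% to 14.7%, with overlap in both. LT-HSC went the other way from GMP, at 17.3% and 14.35% in WT and 9.57% and 11.8% in KO.

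Dnmt3a has a transcript, Dnmt3a-205, that starts 84568 bases after the long transcripts and lacks the part coding for the first stretch of the long protein, the form known as DNMT3A2. It took 32.5%, 34.0% and 29.8% of the Dnmt3a counts in WT MEP and 23.6%, 24.9% and 21.9% in KO MEP, without overlap. In GMP the shares were 21.6% to 23.1% in WT and 22.4% to 24.7% in KO, and in CMP 16.2% to 20.0% and 19.0% to 22.3%. LT-HSC libraries were higher, at 31.7% and 37.8% (WT) and 37.9% and 41.5% (KO), from the other kit. As a share of TPM the short form held 61.9% in WT MEP and 46.6% in KO MEP.

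The upstream start of Tet1, that of Tet1-206, took 81.4%, 92.2% and 68.5% of the counts in WT GMP and 96.9%, 94.9% and 95.6% in KO GMP, on 851 to 1691 counts. The KO libraries lie above the WT libraries, which spread widely. In CMP the Tet1 shares were 78.2% to 87.9% in WT and 89.2% to 91.4% in KO, also without overlap. As shares of TPM the CMP libraries did overlap, at 52.8% to 64.5% in WT and 56.2% to 68.4% in KO. LT-HSC had the same order, at 75.4% and 73.2% in WT and 81.0% and 82.0% in KO. In MEP the shares overlapped, at 33.85% to 91.7% in WT and 61.0% to 80.7% in KO. For Tet3 the upstream start, of Tet3-203, took 6.86% to 15.03% of the counts in WT precursors and 10.2% to 15.8% in KO precursors. In LT-HSC it took 33.7% to 50.7%, which cannot be told apart from the change of kit. Dnmt1 held a steady split, with 19.1% to 30.6% of the counts on its upstream start over all libraries. With 3 libraries against 3 an exact permutation test cannot go below p = 0.10, and no test was made on these shares.

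**Figure D4:**
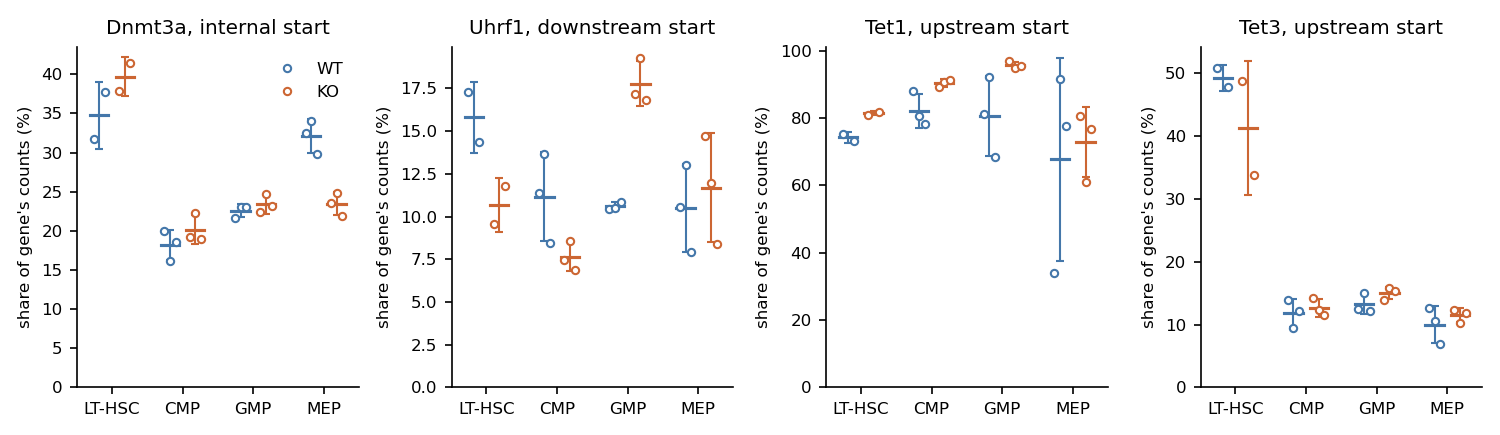
Share of a gene's estimated counts (percent, from 0) that lies on transcripts with the named start, for Dnmt3a, Uhrf1, Tet1 and Tet3. Points are libraries and bars the mean ± SD (n = 2 in LT-HSC, n = 3 in the others), WT in blue and KO in orange. The Uhrf1 downstream start separates KO from WT in GMP (16.9% to 19.3% against 10.4% to 10.9%) and, with KO below WT, in LT-HSC. The Dnmt3a internal start separates them in MEP.

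Partners of the pathway were read from 7 lists. Their counts stand beside the shares of all genes called higher and lower, namely for CMP 10.6% higher and 12.8% lower, for GMP 17.5% higher and 16.3% lower, and for MEP 14% higher and 15.4% lower. Maintenance partners keep methylation going at replicated DNA. Of 10 genes 9 were tested, with 2 lower in KO CMP, 0 called in KO GMP and 2 higher in KO MEP. Pclaf, a PCNA-associated factor, was at -0.39 ± 0.10 in CMP (adjusted p = 0.0261), and Hells, a chromatin remodeler needed for methylation, at 0.28 ± 0.09 in MEP (adjusted p = 0.0678). The medians were -0.09, 0.05 and 0.11, beside medians of all genes at or within 0.01 of 0.

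In the list of proteins that bind methylated CpG and their MBD family relatives, Mbd2 rose in all 3 precursors. Its mean CPM went from 94.1 ± 6.71 to 136.6 ± 3.74 in CMP, from 75.1 ± 3.35 to 106.5 ± 4.81 in GMP and from 177.7 ± 2.75 to 225.3 ± 7.83 in MEP (SD, n = 3). The log2 fold changes were 0.54 ± 0.06, 0.50 ± 0.06 and 0.34 ± 0.05 (largest adjusted p = 0.00134). Of the 10 genes of this list 1 was higher in CMP, 3 in GMP and 3 in MEP, and 2 were lower in MEP (Mbd3 and Zbtb38).

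The list of TET partners and cofactor enzymes held the largest fall. Cxxc5, a CXXC-domain protein known to bind TET2, went from 69.5 ± 3.52 to 48.5 ± 8.29 CPM in CMP, from 32.4 ± 3.52 to 6.57 ± 1.79 CPM in GMP and from 7.63 ± 3.19 to 3.44 ± 0.436 CPM in MEP. It fell by 0.52 ± 0.11, 2.30 ± 0.18 and 1.15 ± 0.30 on the log2 scale (adjusted p = 0.0134, 3.6e-05 and 0.0287). Of 9 genes 7 were tested in each precursor, with 1 higher and 2 lower in CMP and again in GMP. In MEP 1 was higher and 4 were lower. No TET gene was called in the same comparisons.

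Repair and deamination factors linked to active demethylation counted 1 higher and 2 lower of 14 tested in CMP, 1 higher and 3 lower of 13 in GMP, and 1 higher and 5 lower of 12 in MEP. Gadd45g, a stress-induced adaptor, fell by 1.17 ± 0.31 in GMP (adjusted p = 0.0228) and rose by 0.74 ± 0.16 in MEP (adjusted p = 0.013), and its relative Gadd45b fell by 0.68 ± 0.18 in CMP (adjusted p = 0.0291). Histone methylation factors that guide DNA methylation included Nsd2, an H3K36 methyltransferase, which rose by 0.72 ± 0.10 in MEP (adjusted p = 0.00169). Setd2, which trimethylates H3K36, rose by 0.32 ± 0.05 in CMP (adjusted p = 0.00324), and Nsd3 fell by 0.16 ± 0.06 in GMP (adjusted p = 0.0773). Of 12 such genes 1 was higher and 2 lower in CMP, 1 was lower in GMP, and MEP had 3 in each direction.

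Genes that make and recycle the methyl donor S-adenosylmethionine were called in both directions, with 3 of 16 tested higher and 2 lower in CMP, 3 lower in GMP, and MEP at 3 in each direction. Slc19a1, the reduced folate carrier, fell by 0.38 ± 0.08 in GMP (adjusted p = 0.00567). Shmt1, which transfers a carbon unit from serine to folate, rose by 0.57 ± 0.08 in MEP (adjusted p = 0.00161), and Mthfd1 of the folate cycle rose by 0.38 ± 0.12 in CMP (adjusted p = 0.0659). Of 15 germ cell genes known to be held silent by DNA methylation most had too few counts: 5 were tested in CMP, with 1 higher and 1 lower, 2 in GMP, with 0 called, and 3 in MEP, with 1 higher. Ddx4, the germ cell RNA helicase, went from 2.34 ± 0.633 to 12.9 ± 4.29 CPM in CMP (log2 fold change 2.46 ± 0.28, adjusted p = 0.000563) and rose by 0.40 ± 0.12 in MEP (adjusted p = 0.0418). The gene that fell in CMP was Tex101, a germ cell surface protein that the naming rule did not pick, from 0.198 ± 0.00858 to 0.043 ± 0.019 CPM (log2 fold change -2.11 ± 0.52, adjusted p = 0.0239). In GMP Ddx4 stood near the floor in both genotypes, at 0.231 CPM in WT and 0.238 CPM in KO, and was not called.

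Replication genes, which follow the share of cells in S phase as Dnmt1 and Uhrf1 are known to do, were read as a list of 34. In KO GMP 8 of the 34 were called higher, where 17.5% of all genes were, and 0 lower, with a median of 0.10. Rrm2, a subunit of ribonucleotide reductase, rose by 0.58 ± 0.07 (adjusted p = 0.000315). In CMP 0 were higher and 2 lower, with Cdt1, the licensing factor, at -0.27 ± 0.05 (adjusted p = 0.0104). In MEP 3 were higher and 4 lower, with Rfc5, a clamp loader subunit, at -0.33 ± 0.06 (adjusted p = 0.00652). The part of replication in the Dnmt1 value of GMP was not tested. In LT-HSC no gene of the 8 lists was called, with the median of the replication list at 0.52 beside -0.16 for all genes.

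**Figure D5:**
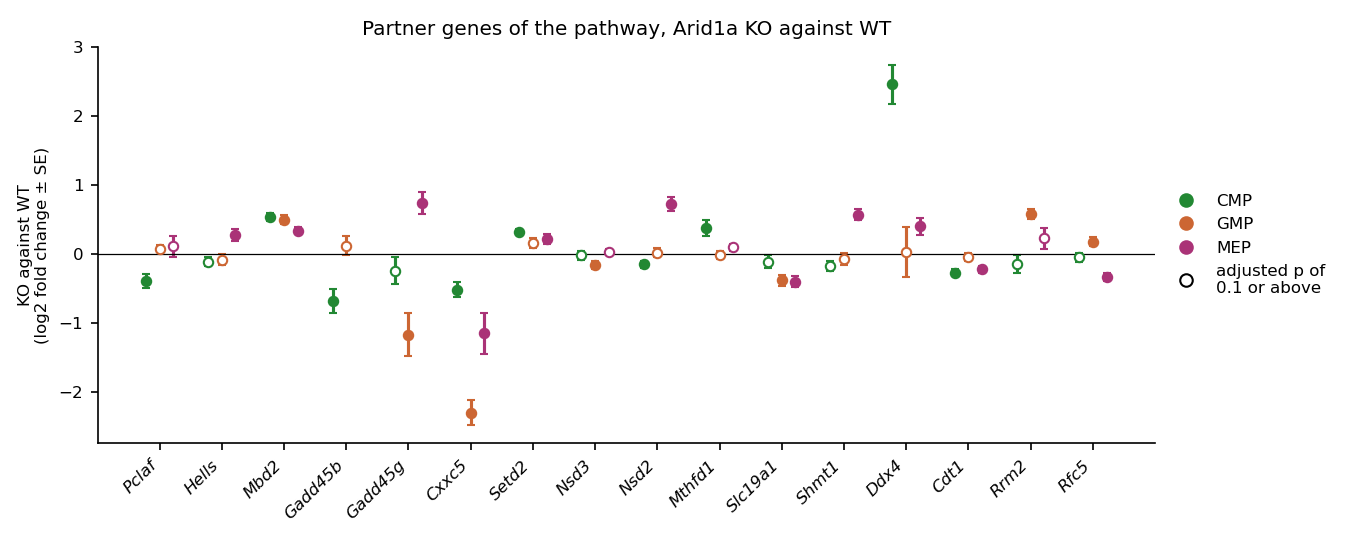
Log2 fold change between KO and WT with its SE (vertical axis) for the partner genes named by the largest called change per list and precursor. Filled points passed an adjusted p of 0.1, and a missing point is a gene that did not pass the filter. Mbd2 is above 0 and Cxxc5 below 0 in all 3 populations, and Ddx4 is at 2.46 in CMP.

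Genes whose level followed that of a member most closely over the 18 precursor libraries were sought among 13765 genes by Pearson's correlation of log2(CPM + 1). These libraries come from 6 mice and 3 populations, so the values describe shared differences between populations and genotypes. Those of Dnmt3l are set mainly by the KO GMP libraries of the contrast for which it was noted. Dnmt3l was most like Ankrd22 (r = 0.993), Clec4b2 (0.992) and Fcnb (0.980). Dnmt3a was most like Rgs2, Myo5a and Itgal (0.992 to 0.994), and Dnmt3b like Adgrg1, Aff3 and Msi2 (0.959 to 0.976). Tet2 was most like Lamb3, Spata13 and Casz1 (0.988 to 0.991). Tet1 and Tet3 shared Apc as the most like gene (0.988 and 0.969), followed by Efcc1 and Trp53bp1 for Tet1 and by Srcap and Rsf1 for Tet3. Dnmt1 was most like Rps6ka3, Rfc1 and Heatr6 (0.945 to 0.953). Uhrf1, the flattest of the 8, had no gene above 0.873 (Ebp, then Mrfap1 and Slc31a1). Among the members themselves Tet1 and Tet3 were the most alike (r = 0.94) and Dnmt3b and Uhrf1 the least (r = -0.71).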

How the data were processed

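RNA of 22 libraries was aligned by the authors to Ensembl mouse transcripts (GRCm38, mm10) with kallisto. The authors deposited, per transcript and library, an estimated count, the TPM (scaled for effective length and depth) and the effective length itself. Fragments shared by transcripts are divided between them, so isoform shares are estimates. The authors' own tests used tximport and DESeq2.

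Of 115088 transcripts, 114200 (99.2%) were paired with the genes of GENCODE vM21. Counts and TPM were summed per gene, and counts rounded. KO and WT were compared within 1 population at a time by the quasi-likelihood test of edgeR 4.0.16 (R 4.3.3) after TMM scaling and its default expression filter. P-values were adjusted by Benjamini-Hochberg over all genes tested, at an FDR threshold of 0.1. WT populations and differences of KO effects were fitted over the precursors, blocked on the mouse, since the labels tie libraries to mice. Standard errors are the log2 fold change over the square root of F. Scripts were tested on simulated data. Starts within 400 bases were grouped. CPM are per population with TMM library sizes.

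The genes and lists were chosen with earlier results of these data known. All 8 genes are named in each population, with, per partner list and precursor, the gene of the largest called change at a mean of at least 1 TPM, and the 3 genes most like each member. The alternatives tried were no expression filter, size factors by median of ratios, a length offset, DESeq2 1.42.0, limma 3.58.1 on log2(TPM + 1) and log2(TPM + 0.1), a replicate block, all precursors in 1 fit and leaving out each library. Separate WT and KO mice are the replicates of the precursors. Intervals cover counting error only.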

Additional observations from a re-analysis of the deposited data

Results flagged for a closer look

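The effect of the KO differed between precursor populations for 4 of the 7 genes tested, by the genotype and population term of the fit over 18 libraries (edgeR's quasi-likelihood test, adjusted p under 0.1). Of all genes, 21.0% were called for GMP less CMP and 26.8% for GMP less MEP. For Dnmt3b the effect in GMP less that in CMP was -0.61 on the log2 scale, and less that in MEP it was -0.81: the gene was lower in all 3 KO GMP libraries than in any WT GMP library and higher in all 3 KO MEP libraries than in any WT MEP library. Dnmt1 had differences of 0.30 (GMP less CMP) and 0.22 (GMP less MEP), Uhrf1 of 0.26 (GMP less CMP) and Dnmt3a of 0.33 (GMP less MEP). The Dnmt3b differences were kept with every mouse left out in turn. Those of Uhrf1, of Dnmt3a and of Dnmt1 between GMP and MEP were lost without certain single mice.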

How the results depend on the processing

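Across the settings run, 804 values of single genes were recomputed for 75 results. Of these 720 kept their side of the threshold, 36 lost the call, 26 gained one, and 22 without a call moved in value or sign. The sign was the other one in 43 values, none of them called. Counts of called genes moved as follows. In LT-HSC, 1 gene (Dnmt3b) was higher without the filter, with DESeq2 and with DESeq2 and a length offset. In CMP, 0 were higher with the length offset and with all precursors in 1 fit, and 2 with DESeq2 (with or without the length offset) and with limma on log2(TPM + 1) or log2(TPM + 0.1). In GMP, limma on either TPM scale left 0 higher, and in MEP limma on log2(TPM + 1) left 0. Between WT GMP and CMP, the length offset left 1 gene lower. Leaving out a library gave 0 to 3 genes higher in LT-HSC, 0 to 2 in CMP, 0 to 2 in GMP, 0 to 2 in MEP, 1 to 2 lower between WT GMP and CMP, and 0 to 1 and 1 to 3 differences of the KO effect for MEP less CMP and GMP less MEP. Causes of these moves were not tested.

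WT and KO mice share no numbers, and a replicate block was formed from the order of sample columns, which the labels do not call a pairing. Deviations of such pairs correlated at 0.063 to 0.592 in precursors and 0.195 in LT-HSC, and in MEP WT mouse 300 correlated best with KO mouse 308 (0.386). With this block 3 genes were higher in KO CMP (Dnmt3a, Dnmt3b, Tet1) and 1 lower (Uhrf1). Without the mouse block, 1 difference passed between MEP and CMP (Dnmt3a). The main limits are 2 libraries per group in LT-HSC, Dnmt3l counts too low to test in CMP and MEP, and the scale used in GMP, where log2 TPM values with limma moved the median of all genes to -0.10 or -0.15.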

Other observations

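Dnmt3c, the germ cell copy of Dnmt3b, was also read, among the precursors most in MEP. Its estimated counts were 152, 237 and 142 in WT MEP and 248, 398 and 248 in KO MEP (1.69 to 4.93 TPM), against 5 to 31 in WT CMP and 0 to 2 in WT GMP. KO MEP against WT MEP was not called. KO CMP held 25 to 114 counts and was called higher than WT CMP, with overlapping libraries (log2 fold change 1.67 ± 0.59, adjusted p = 0.0906 with edgeR's quasi-likelihood test). LT-HSC libraries, from the other kit, held 46 and 201 counts in WT and 232 and 104 in KO. WT MEP was above WT CMP by a log2 fold change of 3.75 ± 0.36 (adjusted p = 1.79e-05 with edgeR's quasi-likelihood test). Since kallisto divides fragments that fit both genes, part of these counts could belong to Dnmt3b, which was not tested. Aire, which overlaps Dnmt3l, held 212 to 434 counts in LT-HSC libraries and at most 81 in any precursor library, where the kit differed.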
